A study of Homo sapiens with 4 samples.

Results

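The S100 genes examined here are 10 members of a family of small calcium-binding proteins, S100A2, S100A4, S100A6, S100A8, S100A9, S100A10, S100A11, S100A13, S100A16 and S100P, found by symbol among the 20252 genes of the deposited table. All 10 had a row. Stranded mRNA libraries were made from H2030, a human line established from a lung adenocarcinoma. There were 2 libraries labelled as carrying a control vector and 2 labelled as GALNT3 overexpression. Both groups were grown in RPMI medium with serum, and no treatment is recorded. The labels name neither the vector nor its promoter, leave unsaid whether a line is 1 clone and whether replicates are separate cultures. The p-values thus reflect only how far these libraries differ, which may be technical variation. The question is which of these transcripts differ between the groups as labelled.

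Most S100 proteins are dimers that carry a pair of EF-hand calcium-binding loops in each chain. On binding calcium most of them expose a surface that docks onto partner proteins, such as annexins, cytoskeletal myosin or p53. S100A10 differs in that it holds the open shape without calcium. Some members are also released from cells and act on receptors such as RAGE (gene AGER) and TLR4. S100A8 and S100A9 pair into calprotectin, which is abundant in neutrophils and monocytes and is induced in some stressed or transformed epithelia.

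GALNT3, the targeted gene, went against its label. It stood at 4.34 and 5.34 FPKM (a fragment count scaled by transcript length and library depth) in vector replicates 1 and 2, and at 0.0164 and 0 FPKM in GALNT3 overexpression replicates 1 and 2. Directions below are therefore between the libraries as labelled and would turn if the labels were exchanged. The cell type was checked against markers. Of 7 epithelial markers, KRT8 and KRT18, keratins of simple epithelia, were at 109 to 145 and 331 to 439 FPKM, and MUC1 at 9.95 to 15.0 FPKM. The keratin KRT7 had means of 7.34 FPKM in the vector libraries and 4.71 FPKM in the others. KRT18 went the other way, with means of 350 and 429 FPKM. Neither had an adjusted p below 0.05 (limma, 0.165 for KRT7 and 0.570 for KRT18). KRT19 was listed at 0 in all 4 libraries. The epithelial adhesion genes EPCAM and CDH1 were at 0.459 to 1.40 and 0.0495 to 0.209 FPKM. Of 10 squamous keratinocyte markers 8 were listed at 0 in all libraries, as were 2 of 8 fibroblast markers. The highest of each list were KRT10, at 8.17 to 10.3 FPKM, and COL1A1, at 3.57 to 4.89 FPKM. Relative depth, from the value of a single fragment in genes below 0.2 FPKM, was 1.07 and 0.988 in vector replicates 1 and 2 and 0.973 and 0.966 in GALNT3 overexpression replicates 1 and 2.

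The members spanned a wide range of levels. S100A6, S100A11 and S100A10 were among the most abundant transcripts of the cell line, ranking 32nd, 62nd and 175th of 20252 by mean FPKM. S100A16, S100A4 and S100A9 lay between 4.28 and 34.1 FPKM, and S100A2 between 1.07 and 1.84 FPKM. S100A8 and S100A13 were listed at 0 in all 4 libraries, and S100P rested on a single fragment. The 3 abundant genes made up 97.8% to 98.1% of the summed FPKM of the 10 members, and the 10 members together 0.594% to 0.685% of all FPKM of a library.

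The promoters of the 3 abundant genes held more CG dinucleotides than those of the other members. RefSeq windows (GRCh38.p14) from 250 bases before to 50 after a transcript start were found for all 10 members, 16 windows in all. Those of S100A6, S100A10 and S100A11 held 31, 32 and 22 CG pairs, against 2 to 19 in the 13 windows of the other members and a median of 14 over all 35116 windows (quartiles 4 and 28). S100A11 thus lay within the middle range of all windows, and S100A6 and S100A10 above it. The highest of those 13, with 19, belonged to S100A13, whose listing at 0 may be a failed estimate and gives no level. The letters TATAAA, the core of the TATA box, were found on either strand in 6 of the 16 windows and in 11.5% of all windows. The 4 windows below are shown to set 2 abundant genes beside the 2 members that differed most between the groups. For S100A16, which has 2 annotated windows, the outermost start is shown. Each is written 5′ to 3′ on the strand of its gene, with capitals for every CG and for TATAAA.
S100A6, chr1:153535942-153536241, minus strand: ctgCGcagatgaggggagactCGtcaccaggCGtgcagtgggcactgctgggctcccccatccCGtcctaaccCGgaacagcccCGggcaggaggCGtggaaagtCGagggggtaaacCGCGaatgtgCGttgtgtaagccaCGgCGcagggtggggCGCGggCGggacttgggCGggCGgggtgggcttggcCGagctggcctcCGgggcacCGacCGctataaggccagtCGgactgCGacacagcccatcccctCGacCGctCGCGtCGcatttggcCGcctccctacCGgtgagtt
S100A10, chr1:151993810-151994109, minus strand: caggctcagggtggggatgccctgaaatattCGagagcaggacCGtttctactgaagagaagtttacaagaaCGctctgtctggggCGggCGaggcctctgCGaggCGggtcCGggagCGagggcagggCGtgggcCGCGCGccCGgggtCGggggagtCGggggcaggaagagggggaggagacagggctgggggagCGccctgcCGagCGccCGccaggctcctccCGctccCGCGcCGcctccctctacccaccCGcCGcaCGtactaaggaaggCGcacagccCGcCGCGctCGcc
S100A9, chr1:153357604-153357903, plus strand: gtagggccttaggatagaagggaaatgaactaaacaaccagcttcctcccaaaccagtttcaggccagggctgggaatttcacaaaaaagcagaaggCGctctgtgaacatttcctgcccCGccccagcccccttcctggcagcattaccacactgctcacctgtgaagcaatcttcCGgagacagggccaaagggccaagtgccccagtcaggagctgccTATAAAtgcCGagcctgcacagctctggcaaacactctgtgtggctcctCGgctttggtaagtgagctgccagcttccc
S100A16, chr1:153613088-153613387, minus strand: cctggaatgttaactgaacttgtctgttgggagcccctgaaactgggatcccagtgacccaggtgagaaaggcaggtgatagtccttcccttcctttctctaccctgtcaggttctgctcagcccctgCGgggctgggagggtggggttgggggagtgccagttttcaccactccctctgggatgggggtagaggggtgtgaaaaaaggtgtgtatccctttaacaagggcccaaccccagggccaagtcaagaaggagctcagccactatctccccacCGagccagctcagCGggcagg
The S100A9 window holds 5 CG pairs and TATAAA from base 222, and the S100A16 window 3 CG pairs and no TATAAA. The GC box letters GGGCGG (either strand) were found in 6 of the 16 member windows, those of S100A6, S100A9, S100A10, S100A11 and 1 each of S100A13 and S100A16, and in 45% of all windows. The AP-1 letters TGANTCA (palindromic apart from N) were found among the members only in 1 of the 2 windows of S100A2, and in 7.71% of all windows. The C/EBP letters TTGCNNAA (either strand) were found among the members only in the window of S100A11, and in 10.5% of all windows. These matches are descriptions of the letters in the windows.

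All members but S100P lie together. In GENCODE 29 (GRCh38), S100 genes from S100A10 to S100A1 span 1649.1 kb of chromosome 1, from 151982915 to 153632039, and enclose the genes of the epidermal cornified envelope and the fused-type S100 proteins such as filaggrin. S100P lies alone on chromosome 4, from 6693069 to 6697170. Of the 64 protein-coding genes annotated in the cluster, 62 were in the table, 17 of them S100 genes. Of the other 45, 37 were listed at 0 in all libraries and only FLG, which encodes filaggrin, reached a mean of 1 FPKM. FLG was at 1.67 and 1.45 FPKM in vector replicates 1 and 2 and at 1.54 and 1.64 FPKM in GALNT3 overexpression replicates 1 and 2, so its groups overlapped (limma, adjusted p = 0.992). It was the only 1 of 7 fused-type S100 genes that could be tested. Among the 62 genes in the table, those with a mean of at least 1 FPKM were 7 S100 members and FLG.

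**Figure D1:**
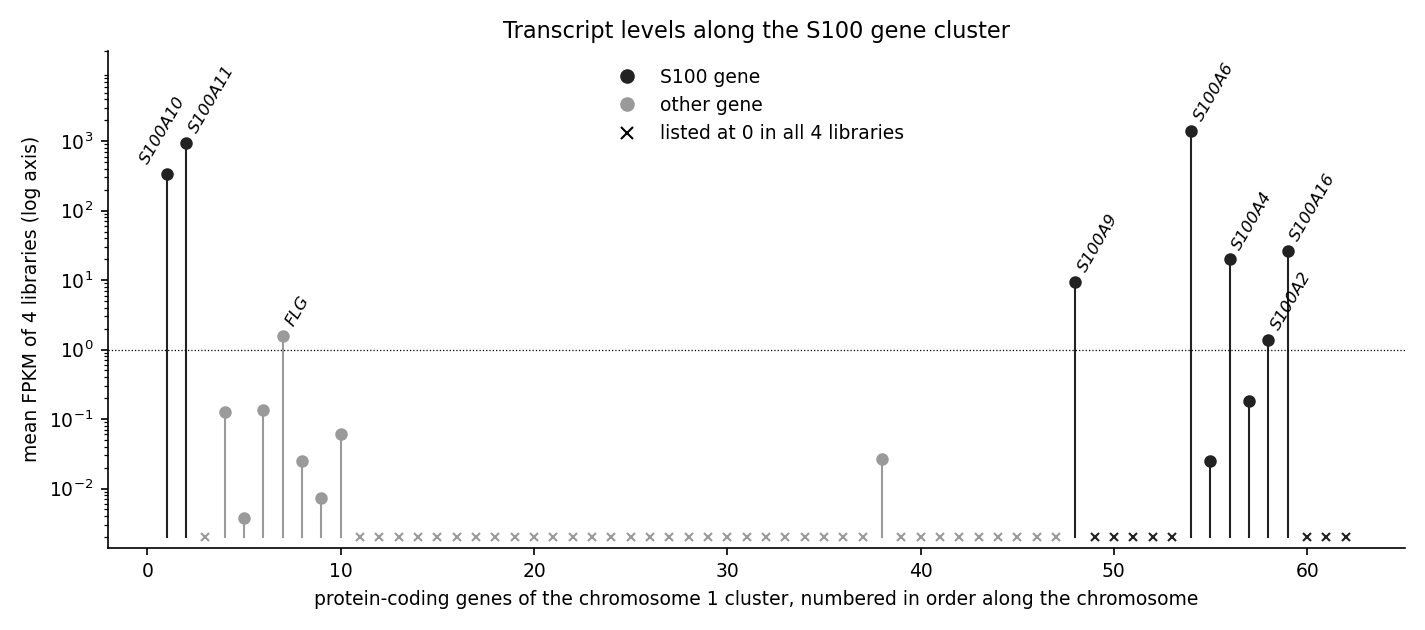
Mean FPKM over the 4 libraries (log axis) of the 62 protein-coding genes of the chromosome 1 cluster, numbered in their order along the chromosome, with S100 genes in black, other genes in grey and genes listed at 0 in all 4 libraries as crosses. The genes above the dotted line at 1 FPKM are 7 S100 genes and FLG.

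Each member was compared between the groups on log2(FPKM + 1) with limma, fitted to the 10998 genes whose mean reached 1 FPKM and adjusted over all of them by the Benjamini-Hochberg method. This scale understates the change of low genes. Of the 10 members 7 were tested, since S100A8, S100A13 and S100P were below that mean. One member passed an adjusted p of 0.05, S100A16, which was lower. The background was 0.500% of tested genes in either direction, 0.391% in the lower and 0.109% in the higher direction. With an unadjusted p below 0.05 there were 2 members, S100A16 and S100A9, against a background of 7.34%. That member count was 4 with libraries rescaled to the same sum and 3 with quantile normalization, where the background was not counted. The groups did not overlap for 3 of the 7, S100A9 and S100A11 above and S100A16 below, where the background was 36.2% in either direction, 20.9% above and 15.3% below. The median log2 change of the 7 was 0.14, beside 0.016 over all tested genes. The count of 1 was not stable. It was 0 with every gene above 0 tested, and it also changed with some libraries left out. With 1 library left out, the log2 change of S100A16 ran from -0.78 to -0.64.

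**Figure D2:**
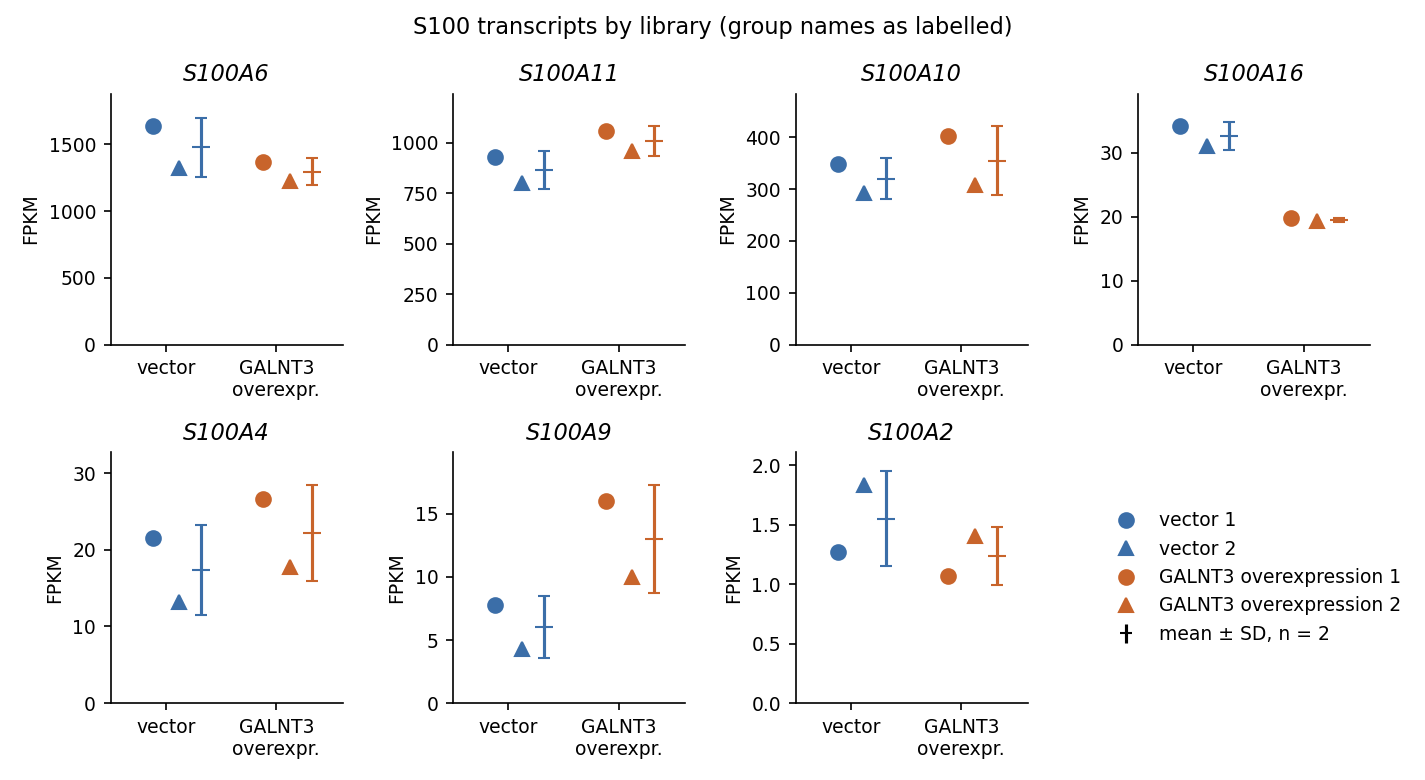
FPKM of the 7 tested members in each library, with the vertical axis from 0, circles for replicate 1, triangles for replicate 2 and bars for the mean ± SD of 2 libraries. S100A16 separates the groups with little spread, at 34.1 and 31.0 FPKM in vector and 19.7 and 19.2 FPKM in GALNT3 overexpression. The groups of S100A4 overlap. Those of S100A9, at 7.77 and 4.28 FPKM in vector and 16.04 and 10.0 FPKM in GALNT3 overexpression, are each widely spread.

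S100A16, a widely expressed member of the family, fell. It was at 34.1 and 31.0 FPKM in vector replicates 1 and 2 and at 19.7 and 19.2 FPKM in GALNT3 overexpression replicates 1 and 2. Both libraries labelled GALNT3 overexpression were below both vector libraries, and the gap between the groups was wider than the spread within either. The means were 32.5 ± 2.2 and 19.5 ± 0.36 FPKM (SD, n = 2), a ratio of 0.599, and the log2 change was -0.71 ± 0.09 (SE; limma, adjusted p = 0.0251). It is encoded on chromosome 1 between 153606886 and 153613145 (minus strand) and overlaps no other annotated gene. The values could be traced to whole fragments, 644 and 539 in the vector libraries and 338 and 327 in the others, each within 0.003 of a whole number. Corrected for depth, the ratio of the summed fragments was 0.598 (95% exact binomial interval 0.543 to 0.658, counting error only). The ratio was 0.579 between the libraries numbered 1 and 0.621 between those numbered 2. The adjusted p (limma) was 0.172 without vector replicate 1 and 0.0803 without vector replicate 2, with log2 changes of -0.64 and -0.78, and 0.152 with every gene above 0 tested.

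S100A9, the larger chain of calprotectin, had the highest log2 change of the 7 but did not pass. It was at 7.77 and 4.28 FPKM in vector replicates 1 and 2 and at 16.04 and 10.0 FPKM in GALNT3 overexpression replicates 1 and 2. The groups did not overlap, the vector libraries being the lower, and in each group the library numbered 2 was the lower. The log2 change was 1.01 ± 0.27 (SE; limma, adjusted p = 0.322, unadjusted p = 0.00653). The fragments behind these values were 63 and 32 in the vector libraries and 118 and 73 in the others. Corrected for depth, the ratio of the summed fragments was 2.14 (95% exact binomial interval 1.66 to 2.76, counting error only). The ratio was 2.07 between the libraries numbered 1 and 2.33 between those numbered 2. The replicates themselves differed beyond counting error: vector replicate 2 over replicate 1 gave 0.551 (0.349 to 0.857), and GALNT3 overexpression replicate 2 over replicate 1 gave 0.623 (0.459 to 0.841). Without GALNT3 overexpression replicate 2, S100A9 passed (limma, adjusted p = 0.0256, log2 change 1.32).

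S100A8, the other chain of calprotectin and a neighbour of S100A9 on chromosome 1, was listed at 0 in all 4 libraries, so no ratio of the chains could be formed. An exact 0 in this table can be a failed estimate. S100A12, which lies between them and is also a myeloid protein, was listed at 0 as well. Of 14 neutrophil and monocyte markers, 4 were listed at 0 in all libraries. The pan-leukocyte marker PTPRC (CD45) was at 0.00983 FPKM in vector replicate 1 and at 0 in the other 3 libraries, and MPO, TYROBP, AIF1 and CSF1R were at 0 in all 4. ELANE, a neutrophil enzyme, was at 1.24 to 1.68 FPKM, FCER1G at 0.792 to 1.55 FPKM and CD14 at 0.307 to 1.31 FPKM, and apart from CD68 the other 5 markers were at most 0.128 FPKM. The summed level of the 14 markers was 33.4 and 30.5 FPKM in the vector libraries and 20.9 and 19.2 FPKM in the others, most of it CD68, a lysosomal protein that is not limited to macrophages. CD68 fell, with means of 28.2 ± 1.5 FPKM in the vector libraries and 16.7 ± 0.52 FPKM in the others (SD, n = 2), the opposite direction to S100A9 (limma, adjusted p = 0.0238). Its adjusted p (limma) was 0.164 without vector replicate 1, 0.0831 without vector replicate 2 and 0.152 with every gene above 0 tested.

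**Figure D3:**
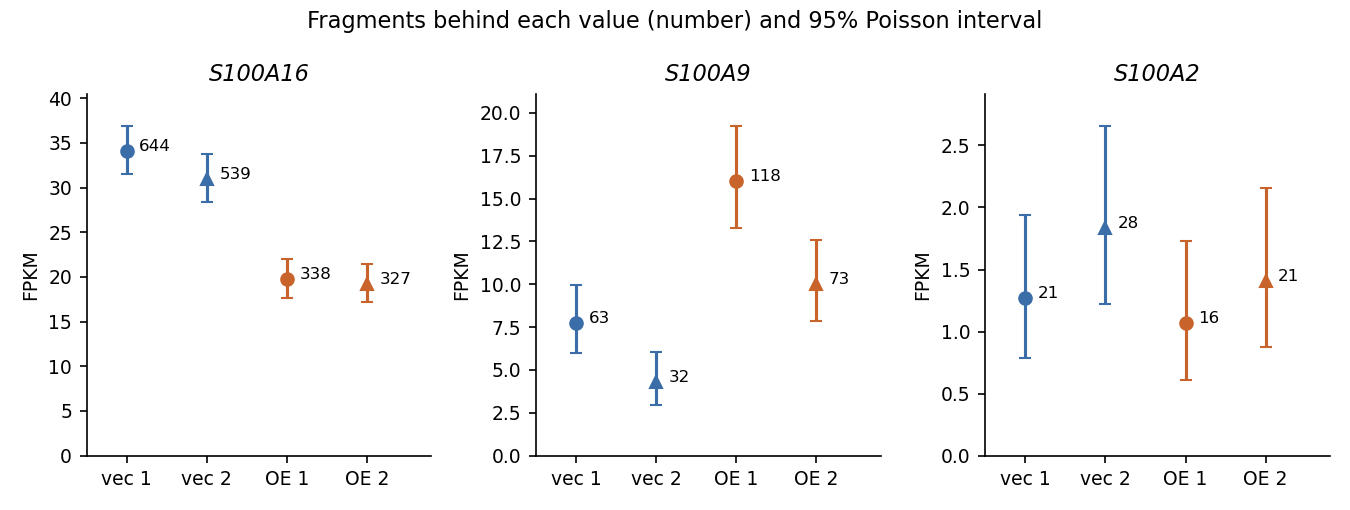
FPKM by library of the 3 tested members whose values resolved into whole fragments, from vector replicates 1 and 2 (vec) and GALNT3 overexpression replicates 1 and 2 (OE); numbers are fragments and bars are 95% exact Poisson intervals, which cover counting error only. The intervals of S100A16 separate the groups, those of S100A9 overlap between vector replicate 1 and GALNT3 overexpression replicate 2 and between the vector replicates, and those of S100A2, from 16 to 28 fragments, overlap throughout.

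The 3 abundant members did not pass. S100A6, calcyclin, which binds annexins and the ubiquitin ligase adaptor CACYBP, was at 1636 and 1324 FPKM in vector replicates 1 and 2 and at 1367 and 1225 FPKM in GALNT3 overexpression replicates 1 and 2. Its groups overlapped, with the highest value in vector replicate 1 (log2 change -0.19 ± 0.15, SE; limma, adjusted p = 0.876). S100A11, a partner of annexin A1 in membrane repair, was at 932 and 799 FPKM in the vector libraries and at 1061 and 959 FPKM in the others. The lowest value labelled GALNT3 overexpression was above the highest vector value by less than the spread within either group (log2 change 0.23 ± 0.13, SE; limma, adjusted p = 0.795). RefSeq lists 10 pseudogenes of S100A11, none of which has a row in the table, so its level is uncertain where their reads are alike.

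S100A10, also called p11, joins annexin A2 in a membrane-bound tetramer that holds plasminogen at the cell surface. It was at 348 and 291 FPKM in vector replicates 1 and 2 and at 401 and 307 FPKM in GALNT3 overexpression replicates 1 and 2. The groups overlapped (log2 change 0.14 ± 0.15, SE; limma, adjusted p = 0.912), and the sign turned without GALNT3 overexpression replicate 1 (-0.052). Its partner ANXA2 was at 755 and 663 FPKM, then 799 and 754 FPKM in the same order, and its groups overlapped too (limma, adjusted p = 0.892). Per length, the level of S100A10 was 0.460 and 0.440 of that of ANXA2 in the vector libraries and 0.502 and 0.407 of it in the others. The 2 ratios labelled GALNT3 overexpression lay on either side of both vector ratios.

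S100A4, which binds the heavy chain of non-muscle myosin IIA and is known from metastasis models, was at 21.5 and 13.2 FPKM in vector replicates 1 and 2. It was at 26.6 and 17.8 FPKM in GALNT3 overexpression replicates 1 and 2. The groups overlapped, since GALNT3 overexpression replicate 2 was below vector replicate 1. In each group the library numbered 2 was the lower (ratios 0.615 and 0.667). The change did not pass (log2 change 0.35 ± 0.24, SE; limma, adjusted p = 0.840). Between libraries of the same number the ratio was 1.24 and 1.34. S100A4 overlaps S100A3 on the same strand in GENCODE 29, and its values did not resolve into whole fragments. S100A2, which binds p53 and is typical of basal and squamous epithelia, was at 1.27 and 1.84 FPKM in the vector libraries and at 1.07 and 1.41 FPKM in the others, from 16 to 28 fragments a library. Its groups overlapped (limma, adjusted p = 0.884), and the ratio of summed fragments, 0.803, had an interval of 0.509 to 1.26 (counting error only). TP63, a known activator of S100A2 in squamous cells, was at most 0.0230 FPKM in any library.

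Of the 7 tested members, 6 were lower in the library numbered 2 than in that numbered 1 in both groups, the exception being S100A2. The same held for 47.7% of all tested genes. Ratios between libraries of the same number lay on 1 side of 1 for all 7 members, above it for S100A4, S100A9, S100A10 and S100A11 and below it for S100A2, S100A6 and S100A16. This was so for 63.9% of all tested genes. The labels do not say that a number marks a shared culture or day.

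**Figure D4:**
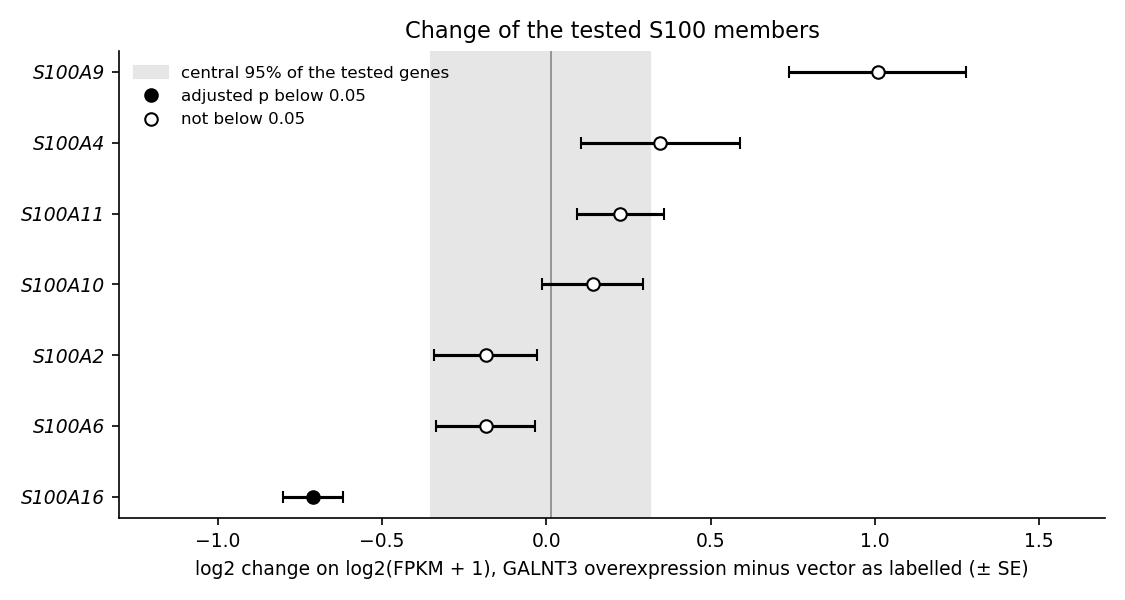
Log2 change on log2(FPKM + 1), GALNT3 overexpression minus vector as labelled, ± SE (limma, 2 libraries a group), with the range that holds the central 95% of all tested genes, -0.35 to 0.32, in grey. S100A16 and S100A9 lie outside that range in opposite directions, S100A4 lies just above it, and only S100A16 passed.

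The members without a testable level were S100A8, S100A13 and S100P. S100A13, which takes part in the export of FGF1 and interleukin 1 alpha without a signal peptide, was listed at 0 in all 4 libraries. It overlaps S100A1, on the other strand, and S100A1 was listed at 0 as well, so the zeros may be failed estimates and give no level. S100P, which binds ezrin and is raised in several carcinomas, was at 0.166 FPKM in GALNT3 overexpression replicate 1, the value of 1 fragment, and at 0 in the other libraries. A count of 0 allows up to 3 fragments, or 0.452 to 0.502 FPKM for this gene (a one-sided 95% limit; the two-sided Poisson interval of the libraries at 0 reaches 0.555 to 0.617 FPKM). Of the 11 other S100 genes in the table, 9 were listed at 0 in all 4 libraries, among them S100A14 and S100B. S100A3 was seen with 4, 1, 3 and 0 fragments in vector replicates 1 and 2 and GALNT3 overexpression replicates 1 and 2, and S100A5 with 1 fragment in GALNT3 overexpression replicate 2.

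Proteins known to bind S100 chains were mostly abundant and did not pass. Of 28 such genes 25 were tested and 0 passed in limma in either direction, with a median log2 change of 0.074. An unadjusted p below 0.05 was found for 1, beside 7.34% of all tested genes. That gene was EZR, ezrin, which links actin to the membrane and is a partner of S100P, at 98.0 and 99.4 FPKM in the vector libraries and 127 and 136 FPKM in the others (limma, adjusted p = 0.180). Annexin A1, the partner of S100A11, had means of 516 ± 40 and 617 ± 44 FPKM (SD, n = 2) and did not pass (limma, adjusted p = 0.718). The tropomyosin gene TPM3 and the vault protein gene MVP had limma adjusted p of 0.744 and 0.753. S100PBP, which binds S100P, was listed at 0 in vector replicate 1 and at 6.18 to 7.17 FPKM in the other 3 libraries, so its large log2 change of 1.49 rests on that 0 (it is named after its values were seen).

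Among 10 genes for receptors that S100 proteins are known to use, 6 were tested and 1 passed, MCAM, which was lower. Over all tested genes 0.391% passed in that direction. The list was chosen with earlier results of these data known. MCAM (CD146) is an adhesion molecule that binds the S100A8 and S100A9 pair. It fell from 7.56 and 5.81 FPKM in vector replicates 1 and 2 to 1.63 and 1.36 FPKM in GALNT3 overexpression replicates 1 and 2, with no overlap (log2 change -1.62 ± 0.14, SE; limma, adjusted p = 0.00500). Its log2 change ran from -2.08 with a pseudocount of 0.1 to -0.84 with a pseudocount of 5, and its adjusted p was 0.150 with every gene above 0 tested. AGER, which encodes RAGE, was at 0.725 to 0.951 FPKM and TLR4 at 0.117 to 0.246 FPKM, both below the mean needed for the test. ALCAM, BSG (basigin, which binds S100A9) and ERBB2 did not pass, with limma adjusted p of 0.834, 0.891 and 0.952. BSG was at 244 to 279 FPKM.

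The plasminogen genes with which S100A10 works did not pass. Of 8 genes 4 were tested, and 2 had an unadjusted p below 0.05, beside 7.34% of all tested genes. The urokinase receptor PLAUR was at 44.1 and 43.0 FPKM in the vector libraries and 58.3 and 56.6 FPKM in the others (limma, adjusted p = 0.166), and urokinase, PLAU, had means of 47.3 ± 4.0 and 60.5 ± 6.8 FPKM (SD, n = 2), with an adjusted p of 0.459 in the same limma fit. The other plasminogen-binding proteins ENO1 and PLGRKT had limma adjusted p of 0.944 and 0.945, and plasminogen itself, PLG, was listed at 0 in all libraries. Of 13 genes for transcription factors known to act on S100 genes 11 were tested and 0 passed in limma, with 1 unadjusted p below 0.05: KLF4, at 2.88 and 3.09 FPKM against 3.89 and 5.35 FPKM (adjusted p = 0.414). STAT3, TCF7L2 and the glucocorticoid receptor NR3C1 had limma adjusted p of 0.855, 0.884 and 0.912. CEBPB and CEBPD, known activators of S100A8 and S100A9 in myeloid cells, were at 9.11 to 16.1 and 20.7 to 30.3 FPKM, with overlapping groups.

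Other EF-hand proteins served as relatives outside the family. Of 41 genes 34 were tested and 0 passed in limma in either direction, with a median log2 change of 0.042. An unadjusted p below 0.05 was found for 4, beside 7.34% of all tested genes. CALB2, the calcium buffer calretinin, was at 25.2 and 23.1 FPKM in vector replicates 1 and 2 and at 34.3 and 39.5 FPKM in GALNT3 overexpression replicates 1 and 2 (limma, adjusted p = 0.0857). It passed without genes listed at 0 (0.0451) and without GALNT3 overexpression replicate 1 (0.0380). EFHD1, a mitochondrial EF-hand protein, was at 2.06 ± 0.70 and 4.55 ± 0.57 FPKM, and RCN1, reticulocalbin of the endoplasmic reticulum, at 41.0 ± 3.3 and 28.95 ± 2.5 FPKM (means ± SD, n = 2). Neither passed, with adjusted p of 0.140 and 0.164 from limma. EFHD2 had an adjusted p of 0.566 (limma).

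**Figure D5:**
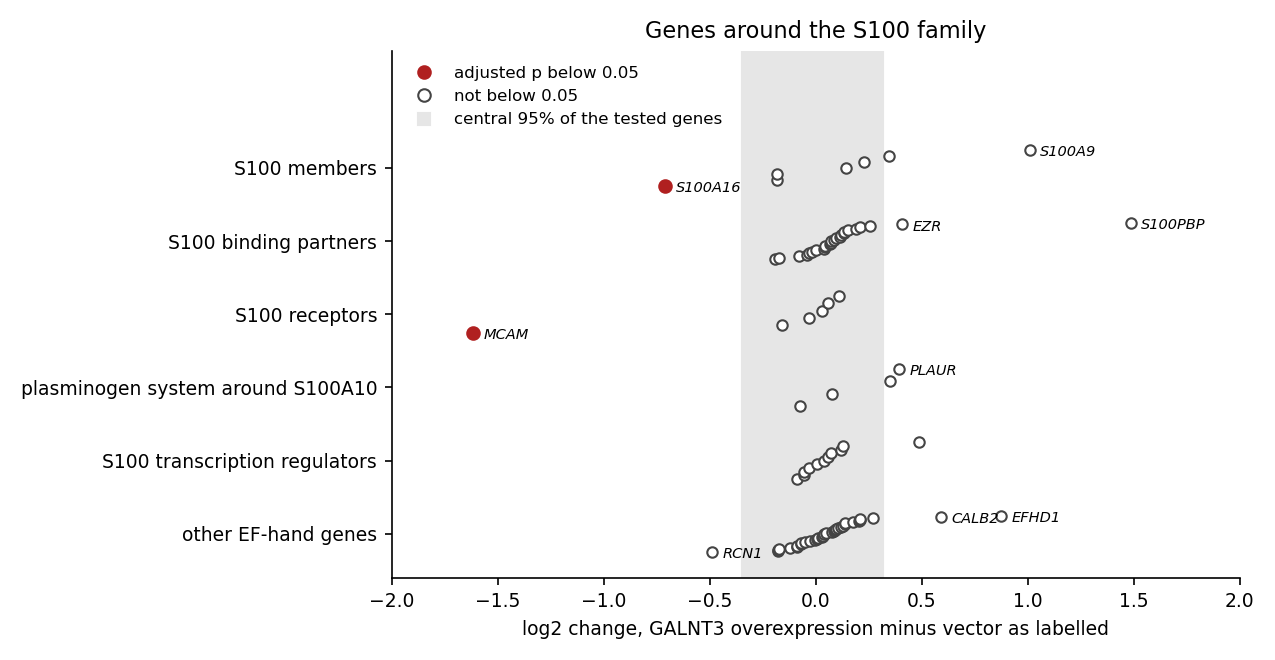
Log2 change on log2(FPKM + 1), GALNT3 overexpression minus vector as labelled, of the tested genes in 6 groups around the S100 family, with the central 95% of all tested genes in grey (points are spread vertically for legibility). The filled points, S100A16 at -0.71 and MCAM at -1.62, are the genes with an adjusted p below 0.05.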

How the data were processed

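The authors deposited 1 table of FPKM per gene symbol and library. Its header names no unit, and FPKM was read from the values, which are not whole and shrink with transcript length for a single fragment. The builds hg19 and GRCh38 and the tools GenomeStudio 2010.1 and TopHat are named without roles, per the submitters' processing notes. The kit is stranded per the labels' protocols. How fragments were counted, with which annotation, filters or strand setting, is not given in the sources used here, so overlapping genes can exchange fragments. Total depth is unknown.

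Groups came from the sample titles. Values were tested as log2(FPKM + 1) for genes whose mean reached 1 FPKM, with limma 3.58.1 (lmFit, eBayes with a trend) in R 4.3.3, group being the only term, two-sided, with Benjamini-Hochberg adjustment at 0.05. An exact permutation test of 2 libraries against 2 cannot go below 0.333, so calls rest on variance shared between genes. The fit was tested on simulated data. The value of 1 fragment per library was taken from genes below 0.2 FPKM; the smallest whole numbers up to 1000 that gave all 4 values within 0.003 are reported as fragments (multiples of them would fit as well), with exact Poisson and binomial intervals (Python 3.11.15, scipy 1.17.1).

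The members and gene lists were chosen with earlier results of these data known. Named genes are all members, GALNT3, other S100 genes above 0, passing genes and up to 4 with the smallest adjusted p in each list, ANXA2, AGER, TLR4 and cell type markers. S100PBP, PLG, TP63, CEBPB and CEBPD were added after their values were seen. Of the list genes 3 matched through an older symbol. The alternatives were other pseudocounts, filters, scalings, no trend, a replicate block and leaving out each library.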

Additional observations from a re-analysis of the deposited data

How the results depend on the processing

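Over 14 alternatives (13 for S100A2, which was not tested where the mean had to reach 5 FPKM), the directions of the 7 tested members held except that S100A10 turned to -0.052 (log2) without GALNT3 overexpression replicate 1, within a range of -0.052 to 0.33 with 1 library left out. S100A16 stayed lower in all 14 (log2 change -0.79 to -0.62). It did not pass (limma) with every gene above 0 tested (-0.71, adjusted p = 0.152), nor without vector replicate 1 (-0.64, 0.172) or vector replicate 2 (-0.78, 0.0803). S100A9 stayed higher in all 14 (0.64 to 1.37) and passed without GALNT3 overexpression replicate 2 (1.32, 0.0256). Genes called over the whole table were 55, against 12 with every gene above 0 tested, 31 where the mean had to reach 5 FPKM, and 23 to 83 with 1 library left out. Members called were 1, against 0 with every gene above 0 and 0 to 2 with 1 library left out. With 1 library left out, the lone library is assumed to vary like the other group. MCAM (-1.62, 0.150) and CD68 (-0.72, 0.152) did not pass with every gene above 0. The cause was not tested.

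The labels give both groups replicate numbers 1 and 2 with no stated pairing, so the samples share only a number. Deviations of same-numbered libraries from their group means correlated at r = 0.218 across 10998 genes, which are not independent replicates. With the replicate block 443 genes were called and 4 members: S100A4 (0.35, limma adjusted p = 0.0250), S100A9 (1.01, 6.36e-05), S100A11 (0.23, 0.0270) and S100A16 (-0.71, 2.44e-04). The block also brought EZR (0.00343), PLAUR (0.00665), KLF4 (0.0275), CALB2 (0.00327), EFHD1 (9.64e-04) and RCN1 (0.00223) below an adjusted p of 0.05. That fit has 1 residual degree of freedom. Depth limits S100A2, with 16 to 28 fragments a library, and S100P, with 1 in all.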
